A study of Homo sapiens with 8 samples.

Results

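The transcription factors examined were *GATA6*, *HNF4A*, *FOXA1*, *FOXA2*, *PDX1*, *KLF5*, *ELF3* and *TP63*. They were chosen by name as the factors that set pancreatic lineage and PDA subtype, and they are 8 of the 25702 genes listed in the deposited count tables, matched by their NCBI gene numbers. The tables came from bulk RNA-seq of SUIT2, a human PDA cell line that the labels describe as pancreatic epithelial cells. Of the 8 libraries, 4 were labelled shScr and carried a scramble shRNA, and 4 were labelled shEN1 and carried 1 of 2 shRNA constructs against *EN1*, with 2 libraries for shEN1 #1 and 2 for shEN1 #2. All libraries came from the same cell line. The labels give no other genotype, no time after transduction and no statement that replicates were separate cultures. A p-value therefore sets a difference between labels only against the spread between these libraries. The comparison asked whether the levels of the lineage and subtype factors differed between cells with the scramble and the *EN1* constructs, and on which side of the classical and squamous divide these cells lie.

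GATA6, HNF4A, FOXA1, FOXA2 and PDX1 are transcription factors of the foregut endoderm and of the developing pancreas. GATA, FOXA and HNF4A proteins bind many of the same enhancers of epithelial genes, and PDA tumors of the classical subtype keep high levels of *GATA6* and *HNF4A*. KLF5 and ELF3 are epithelial factors, whereas the ΔN form of TP63 is the master factor of squamous epithelium and drives the squamous or basal-like program of PDA.

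The targeted gene, *EN1*, did not separate the labels. Its level lay between 2.51 and 4.94 CPM (read counts per 1000000 of the TMM-corrected library size) under the shScr label and between 1.35 and 6.70 CPM under the shEN1 label (log2 fold change 0.26, standard error 0.43, edgeR adjusted p = 1.00), and 3 of the 4 libraries labelled shEN1 exceeded the shScr mean. Every direction below is therefore a direction between labels. When principal components were computed from the log2 CPM of all tested genes, the first (44.4% of the variance) set the library labelled shScr replicate 4 (59.2) and the library labelled shEN1 #2 replicate 1 (62.1) apart from the other 6 (-27.6 to -9.15). These libraries carry different labels, and their root mean square (RMS) difference of 0.395 in log2 CPM was the smallest of all pairs of libraries. At the upper end of the second component (17.5%) were shScr replicate 3 (39.3) and shEN1 #1 replicate 1 (30.6). The markers of the labelled cell type were present: all 8 epithelial or ductal genes of the marker list were tested, with *KRT8* at 7224 and *KRT18* at 4497 CPM on average, the keratin pair of simple epithelia, and *KRT19* at 978 and *KRT7* at 674 CPM.

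The promoter windows of the 3 members that varied over the widest ranges, were low in the same libraries and have an entry in the promoter table, *HNF4A*, *ELF3* and *GATA6*, show which letters lie at their starts. Each window runs from 250 bases before to 50 bases after an annotated start in RefSeq (GRCh38.p14), all on the plus strand. Capitals mark GATAA (bound by zinc finger factors of the GATA family), TAATTA (a homeodomain motif, the kind that EN1 and PDX1 can bind) and GTTAAT (part of the HNF1 motif), each searched on both strands together with TGTTTAC (a forkhead motif). *HNF4A* has an upstream window at chr20:44355449-44355748 and a downstream window at chr20:44400989-44401288, *GATA6* has one at chr18:22169339-22169638 and *ELF3* one at chr1:202010337-202010636.
HNF4A upstream: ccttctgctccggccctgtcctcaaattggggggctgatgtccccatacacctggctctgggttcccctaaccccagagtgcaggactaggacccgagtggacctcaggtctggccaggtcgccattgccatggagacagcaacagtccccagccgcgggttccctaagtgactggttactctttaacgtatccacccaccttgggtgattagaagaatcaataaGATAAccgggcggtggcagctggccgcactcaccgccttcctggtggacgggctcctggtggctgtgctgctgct
HNF4A downstream: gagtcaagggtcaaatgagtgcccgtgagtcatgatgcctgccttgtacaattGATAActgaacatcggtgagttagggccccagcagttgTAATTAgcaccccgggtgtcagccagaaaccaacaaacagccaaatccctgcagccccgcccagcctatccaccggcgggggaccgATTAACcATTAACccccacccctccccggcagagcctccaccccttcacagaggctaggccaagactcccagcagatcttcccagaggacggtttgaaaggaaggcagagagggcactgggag
GATA6: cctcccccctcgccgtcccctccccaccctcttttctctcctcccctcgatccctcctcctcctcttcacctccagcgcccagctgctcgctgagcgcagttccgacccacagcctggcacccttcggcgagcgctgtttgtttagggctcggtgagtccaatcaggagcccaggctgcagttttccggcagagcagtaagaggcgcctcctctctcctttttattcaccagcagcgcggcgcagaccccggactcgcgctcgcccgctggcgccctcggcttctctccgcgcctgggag
ELF3: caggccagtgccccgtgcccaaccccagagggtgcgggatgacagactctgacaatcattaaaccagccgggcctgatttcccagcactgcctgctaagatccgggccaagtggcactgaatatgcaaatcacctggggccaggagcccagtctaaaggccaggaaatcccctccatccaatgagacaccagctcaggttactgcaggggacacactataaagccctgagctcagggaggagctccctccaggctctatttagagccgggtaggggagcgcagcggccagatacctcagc
The upstream *HNF4A* window held 1 GATAA match, and the downstream window held 1 GATAA, 1 TAATTA and 2 GTTAAT matches that shared no letters. Neither the *GATA6* nor the *ELF3* window held any of the 4 motifs. Of all 35116 windows of this length, 22.7% held GATAA, 4.84% TAATTA, 6.88% GTTAAT and 3.42% TGTTTAC, so a GATAA match is common. The *FOXA1*, *KLF5* and *TP63* windows, 4 in all, held none of these letters either, and *FOXA2* and *PDX1* have no entry in the table. The gene counts do not say which of the *HNF4A* starts was used.

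Scaled to the length of the transcript, the epithelial factors stood above the endoderm factors, and *TP63* had counts in 1 library only. In CPM per kilobase of the canonical transcript, the mean over the 8 libraries was 77.5 ± 10.7 (SD, n = 8) for *KLF5* and 34.6 ± 13.7 for *ELF3*. It was 7.64 ± 3.01 for *HNF4A*, 7.12 ± 1.44 for *PDX1*, 5.74 ± 1.35 for *GATA6*, 3.42 ± 0.785 for *FOXA1* and 2.57 ± 0.983 for *FOXA2*. *KLF5* exceeded *ELF3* in 8 of 8 libraries without overlap of the ranges, and the ranges of *ELF3* (15.7 to 51.5) and *HNF4A* (3.10 to 11.3) did not overlap either. Below that, the order is not firm: *HNF4A* exceeded *PDX1* in 6 libraries, *PDX1* exceeded *GATA6* in 6, *GATA6* exceeded *FOXA1* in 7 and *FOXA1* exceeded *FOXA2* in 6, and the ranges of each of these neighbours overlapped. Scaled to the union of all annotated exons instead, *HNF4A*, which has 10167 bases of exon against 4645 in its canonical transcript, fell from rank 3 to rank 5, below *PDX1* and *GATA6*. On that scale *ELF3* fell to 15.0, nearer to *PDX1* at 7.12, and *KLF5* was at 70.5.

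**Figure D1:**
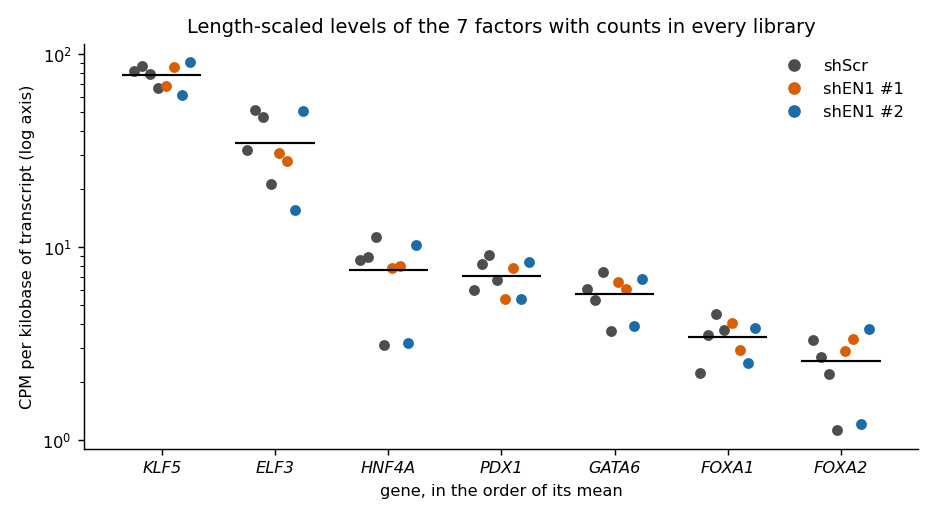
Level of the 7 factors with counts in every library, in CPM per kilobase of canonical transcript on a log axis; each point is 1 library, colored by its label, and the line is the mean over 8 libraries. *KLF5* (61.0 to 90.5) and *ELF3* (15.7 to 51.5) lie above the 5 endoderm factors, whose ranges overlap from neighbour to neighbour.

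*HNF4A*, a nuclear receptor of the gut, liver and pancreas and a marker of classical PDA, varied most among the members. It lies on the plus strand of chromosome 20 in GRCh37, chr20:42984339-43061485. It had 39.7, 41.2, 52.7 and 14.4 CPM under the label shScr (replicates 1 to 4). It had 36.1 and 37.3 CPM under shEN1 #1 and 14.9 and 47.8 CPM under shEN1 #2. The lowest library of each label was far under the rest, the highest library held 3.65 times the level of the lowest, and the labels overlapped. The label means of 36.998 ± 16.1 (shScr) and 34.0 ± 13.8 CPM (shEN1; SD, n = 4 each) differed by a log2 fold change of -0.12 (standard error 0.42, 95% interval -1.07 to 0.82, edgeR adjusted p = 1.00; exact two-sided permutation p = 0.714).

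*GATA6*, a zinc finger factor whose high level defines classical PDA, lies on the plus strand at chr18:19749550-19782491 (GRCh37). Its levels were 21.99, 19.4, 26.9 and 13.3 CPM under the label shScr (replicates 1 to 4), 24.01 and 21.9 CPM under shEN1 #1, and 14.2 and 24.7 CPM under shEN1 #2. The lowest values fell in the same pair of libraries as for *HNF4A*, 1 of each label. The means of 20.4 ± 5.64 (shScr) and 21.2 ± 4.82 CPM (shEN1; SD, n = 4 each) differed by a log2 fold change of 0.055 (standard error 0.24, 95% interval -0.47 to 0.58, edgeR adjusted p = 1.00; exact permutation p = 0.83). An unnamed noncoding gene on the opposite strand shares 321 bases (8.86%) of its exons and *GATA6-AS1* shares 94 bases (2.59%), and the sources used here do not state whether strand was used in counting. The unnamed gene was not matched to a count, and *GATA6-AS1* had 0 to 34 counts in a library, against 499 to 936 for *GATA6*.

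The FOXA factors, the forkhead pioneers that open chromatin at endoderm enhancers, did not follow one another. *FOXA1*, on the minus strand at chr14:38058757-38065264 (GRCh37), had 7.86, 12.3, 15.9 and 13.1 CPM under the label shScr (replicates 1 to 4), 14.2 and 10.3 CPM under shEN1 #1, and 8.87 and 13.4 CPM under shEN1 #2. Its lowest library was shScr replicate 1, and shScr replicate 4, low for *HNF4A* and *GATA6*, was above the *FOXA1* mean. *FOXA2*, on the minus strand at chr20:22561636-22566093, had 8.44, 6.88, 5.57 and 2.86 CPM under the label shScr (replicates 1 to 4), 7.34 and 8.44 CPM under shEN1 #1, and 3.07 and 9.56 CPM under shEN1 #2. It was lowest in shScr replicate 4 and shEN1 #2 replicate 1, as *HNF4A* and *GATA6* were. The ratio of *FOXA2* to *FOXA1* per kilobase ran from 0.302 in shScr replicate 4 to 1.48 in shScr replicate 1, both under the same label, and from 0.479 to 1.13 in the libraries labelled shEN1. Neither gene was called between the labels: the log2 fold change was -0.069 (standard error 0.24, 95% interval -0.59 to 0.46) for *FOXA1* and 0.26 (standard error 0.39, 95% interval -0.61 to 1.13) for *FOXA2*, both with an edgeR adjusted p of 1.00 and with exact permutation p = 0.8 and 0.457.

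*PDX1*, the homeodomain factor without which no pancreas forms, lies on the plus strand at chr13:28494137-28500450 (GRCh37). Its levels were 15.6, 21.3, 23.7 and 17.5 CPM under the label shScr (replicates 1 to 4), 14.0 and 20.3 CPM under shEN1 #1, and 14.0 and 21.8 CPM under shEN1 #2. *PDX1* was the steadiest of the endoderm factors, 1.69-fold from lowest to highest, with its low values in replicate 1 of both constructs and of shScr. The means of 19.5 ± 3.62 (shScr) and 17.5 ± 4.12 CPM (shEN1; SD, n = 4 each) gave a log2 fold change of -0.16 (standard error 0.20, 95% interval -0.60 to 0.29, edgeR adjusted p = 1.00; exact permutation p = 0.486).

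*KLF5*, a zinc finger factor that keeps epithelial cells proliferating, was the most abundant member and the most even. It lies on the plus strand at chr13:73629114-73651679 (GRCh37). It had 273, 289, 265 and 224 CPM under the label shScr (replicates 1 to 4), 229 and 287 CPM under shEN1 #1, and 204 and 303 CPM under shEN1 #2. The highest and the lowest library were both labelled shEN1 #2 and differed 1.48-fold. The log2 fold change was -0.039 (standard error 0.15, edgeR adjusted p = 1.00; exact permutation p = 0.857), and its 95% interval, -0.36 to 0.29, was the narrowest among the members.

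*ELF3*, an ETS factor of differentiated epithelium, lies on the plus strand at chr1:201977073-201986311 (GRCh37). It had 99.0, 160, 147 and 65.8 CPM under the label shScr (replicates 1 to 4), 94.99 and 87.2 CPM under shEN1 #1, and 48.6 and 157 CPM under shEN1 #2. The pair of libraries that was lowest for *HNF4A* was lowest here too, and 3 of the 4 libraries with the shEN1 label were below the mean of the shScr label. The means were 118 ± 43.4 (shScr) and 97.0 ± 45.1 CPM (shEN1; SD, n = 4 each). The log2 fold change of -0.28 was the largest in size among the members, yet smaller than its standard error of 0.37 (95% interval -1.11 to 0.55, edgeR adjusted p = 1.00; exact permutation p = 0.486). With 1 library left out it ran from -0.62 to -0.064, the latter without shEN1 #2 replicate 1, where *FOXA2* was at 0.51. A long noncoding gene on the same strand shares 449 bases (14.5%) of the *ELF3* exons in GENCODE. Whether it was in the annotation used for counting is not given in the sources used here.

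**Figure D2:**
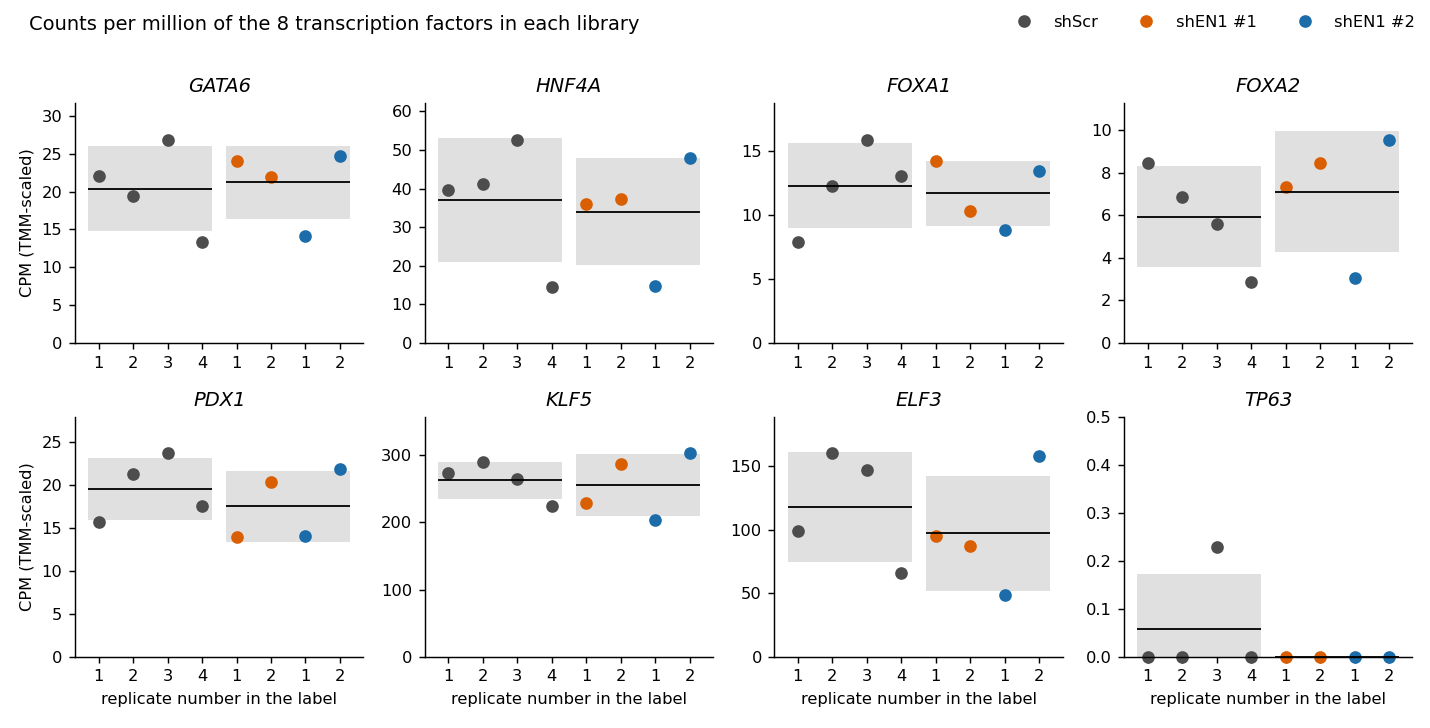
CPM of the 8 factors in each library, colored by label, with the mean (line) and the SD (gray band, cut at 0) of the 4 libraries labelled shScr on the left and the 4 labelled shEN1 on the right of each panel. The bands overlap for every gene. On this TMM-corrected scale, shScr replicate 4 and shEN1 #2 replicate 1 are the lowest libraries for *GATA6*, *HNF4A*, *FOXA2*, *KLF5* and *ELF3*.

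*TP63*, the squamous master factor, lies on the plus strand at chr3:189349178-189615065 (GRCh37) and was the 1 member on the squamous side. It had 8 counts in the library labelled shScr replicate 3, which is 0.230 CPM with an exact Poisson 95% interval of 0.0991 to 0.452 that covers counting error only. It had 0 counts in each of the other 7 libraries, where 0 counts allow up to 3, or 0.0762 to 0.0922 CPM (the exact 95% Poisson interval of 0 counts ends at 0.0937 to 0.113 CPM). The gene did not pass the filter on low counts, so it was not tested, and no direction between the labels can be read from it. Its mean of 0.0058 CPM per kilobase compares with 2.57 for *FOXA2*, the lowest of the endoderm factors.

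Between the labels, edgeR called 0 of the 7 members tested (adjusted p under 0.05), where the share called over all 14333 genes was 0%. At an unadjusted p below 0.05 there were 0 of the 7 members and 44 of all genes (0.307%). Evenly spread p-values would put a share of 0.05 there, so the edgeR p-values ran high in these libraries, for a reason that was not tested. DESeq2 called 2 genes and limma-voom 0 genes, none of them a member. Of the 7 members, 2 were higher and 5 lower under the shEN1 label, with a median log2 fold change of -0.069 against -0.0028 over all tested genes. The CPM of the labels overlapped for each member, whereas 60 of all genes (0.419%) had labels that did not overlap. The intervals limit the size of a change that these libraries could hide: the 95% interval of *KLF5* ends at -0.36 and 0.29, while that of *HNF4A* extends from -1.07 to 0.82.

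The constructs were also compared one by one with shScr in a fit with 3 groups. Neither construct had a member with an adjusted p below 0.05, against 0% of all genes called for shEN1 #1 and 0% for shEN1 #2 (edgeR; 94 and 43 genes at an unadjusted p below 0.05, and 3 and 0 genes by DESeq2). For shEN1 #1 the log2 fold changes of the members lay between -0.37 (*ELF3*) and 0.41 (*FOXA2*), and for shEN1 #2 between -0.24 (*HNF4A*) and 0.088 (*FOXA2*). Both constructs were compared with the same shScr libraries. Between the constructs, the log2 fold changes of shEN1 #2 minus shEN1 #1 lay between -0.32 (*FOXA2*) and 0.18 (*ELF3*), and again 0% of all genes were called (153 at an unadjusted p below 0.05, 0 by DESeq2).

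**Figure D3:**
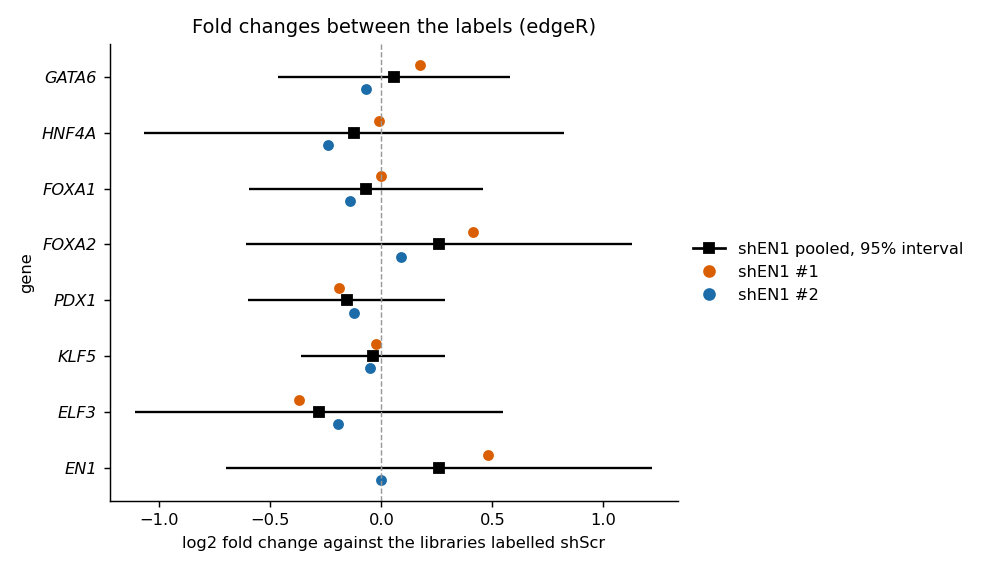
Log2 fold change against the libraries labelled shScr for the 7 tested members and *EN1*, from edgeR. Squares with lines are the pooled shEN1 libraries with the 95% interval, and circles are the constructs alone; the interval of each gene includes 0, from *KLF5* (-0.36 to 0.29) to *EN1* (-0.70 to 1.22).

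For each of the 7 tested members the difference between the label means was smaller than the SD within either label. In TMM-corrected CPM, the 2 lowest libraries were the pair set apart on the first component for 5 of the 7 tested members. These were *GATA6*, *HNF4A*, *FOXA2*, *KLF5* and *ELF3*, and the same held for 19.2% of all tested genes (2754) and for *EN1* itself. In log2 CPM centred on the gene's mean, *HNF4A* stood at -1.16 and -1.12 in this pair, *FOXA2* at -1.06 and -0.95, *ELF3* at -0.60 and -1.03, *GATA6* at -0.60 and -0.51 and *KLF5* at -0.20 and -0.33. The place of *KLF5* among the 5 depended on the scaling. It had fewer counts in shEN1 #1 replicate 1 (8189 of 36679728) than in shScr replicate 4 (8397 of 35234723). *PDX1* and *FOXA1* were low in shEN1 #2 replicate 1 (-0.37 and -0.40) but not in shScr replicate 4 (-0.05 and 0.16). The log2 range over the 8 libraries was larger than in 86.2% of tested genes for *HNF4A*, 84.0% for *FOXA2* and 83.9% for *ELF3*, against 32.4% for *KLF5*. In bulk RNA, fewer cells that express a gene and less RNA per cell cannot be told apart. Without this pair of libraries the log2 fold changes between the labels were 0.045 for *GATA6*, -0.15 for *HNF4A*, 0.072 for *FOXA1*, 0.28 for *FOXA2*, -0.12 for *PDX1*, -0.017 for *KLF5* and -0.26 for *ELF3*, with no member called.

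**Figure D4:**
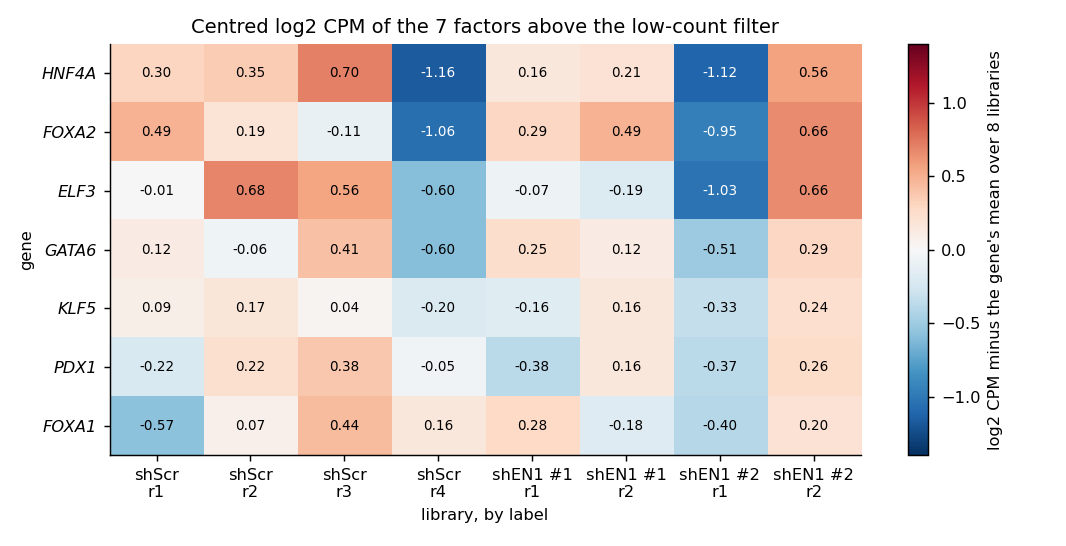
Log2 CPM of the 7 tested members in each library, minus the gene's mean over the 8 libraries, with the value written in each cell. The columns of shScr replicate 4 and shEN1 #2 replicate 1 hold the lowest values of *HNF4A* (-1.16 and -1.12) and *FOXA2* (-1.06 and -0.95), while *FOXA1* is lowest in shScr replicate 1 (-0.57).

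The headers of the deposited tables carry dataset numbers from 18 to 32, and each label has libraries with lower and with higher numbers. Among the libraries with numbers up to 24 (shScr replicates 1 and 2, shEN1 #1 replicate 1, shEN1 #2 replicate 1), the log2 fold change was -0.11 for *GATA6*, -0.66 for *HNF4A*, 0.20 for *FOXA1*, -0.55 for *FOXA2*, -0.39 for *PDX1*, -0.37 for *KLF5* and -0.85 for *ELF3*. Among those with numbers from 26 (shScr replicates 3 and 4, shEN1 #1 replicate 2, shEN1 #2 replicate 2), it was 0.21, 0.34, -0.29, 1.1, 0.031, 0.27 and 0.20 in the same order. The signs in these sets were opposite for each of the 7 members and for 76.1% of the 14187 genes fitted in both, so this is a property of most genes, and no member was called in either set. The median of the classical markers was -0.98 and 0.74 and that of the basal-like markers -0.54 and 0.57. The low pair of libraries is split between the sets, with the library labelled shEN1 among the lower numbers and the library labelled shScr among the higher ones. What the numbers stand for is not given in the sources used here, and the difference between the sets was not tested.

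The distances between the profiles of the members did not bring the FOXA paralogs together. The distance used counts how widely a gene varied as well as its pattern, so steady genes lie close together whatever their pattern. By the RMS difference of centred log2 CPM over the 8 libraries, *PDX1* and *KLF5* were the closest pair of members (0.186), *HNF4A* was closest to *ELF3* (0.310) and then to *FOXA2* (0.329), and the FOXA paralogs were the farthest pair (0.697). Among the 12502 genes with a mean of at least 1 CPM, the nearest profile to *PDX1* was that of *CDX2* (0.083), the intestinal homeodomain factor whose gene lies next to it at chr13:28535055-28543452 (GRCh37, minus strand). *KMT2E-AS1* ran close to *GATA6* (0.080). The nearest to *HNF4A* were *CRYBG2* and *EFNB1* (0.12 each), to *FOXA1* *ZNF524* (0.11) and *ZNF841* (0.13), and to *FOXA2* *CYP4F11* (0.090) and *MAPKAPK3* (0.12). *KLF5* ran closest to *SEMA4B* (0.041) and *VPS37B* (0.048), *ELF3* to *PTGES* (0.10) and *EPB41L1* (0.13), and *PDX1* next to *NRARP* (0.089). *CDX2* had 11.4 to 21.9 CPM, lowest in shEN1 #1 replicate 1 and highest in shScr replicate 3, the same libraries as for *PDX1*. These are the smallest of many distances over the same 8 libraries and are a description only.

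The other foregut and pancreatic lineage factors were present in most cases and did not separate the labels. Of the 30 genes on the list, 24 were tested, 12 were higher and 12 lower under the shEN1 label, and 0 were called, with a median log2 fold change of 0.0072. The most abundant were *EHF*, an ETS relative of *ELF3*, at 193 ± 96.3 and 168 ± 78.5 CPM (shScr and shEN1; SD, n = 4 each), the splicing regulator *ESRP1* at 122 ± 47.3 and 108 ± 37.03 CPM, *ONECUT2* at 105 ± 21.2 and 118 ± 12.5 CPM, and the epithelial factor *GRHL2* at 85.7 ± 9.55 and 82.6 ± 10.8 CPM. The acinar factor *PTF1A* was at 0 in every library. *EHF* followed the pattern of *ELF3*, with 72.8 CPM in shScr replicate 4 and 68.3 in shEN1 #2 replicate 1 against 144 to 300 CPM in the other 6 libraries. For 9 of the 24 tested genes the low pair of libraries was the lowest, beside 19.2% of all tested genes.

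On the squamous side, several factors other than *TP63* were well expressed. Of 20 squamous or basal-like factors, 13 were tested, 8 were higher and 5 lower under the shEN1 label, 0 were called, and the median log2 fold change was 0.15. *FOSL1*, an AP-1 subunit, had 751 ± 227 and 838 ± 191 CPM (shScr and shEN1; SD, n = 4 each), *HMGA2* had 130 ± 33.3 and 152 ± 50.9, *PITX1* had 93.1 ± 20.5 and 96.3 ± 25.04, and the hedgehog effector *GLI2* had 36.9 ± 6.56 and 45.0 ± 9.64 CPM. The low pair of libraries was the lowest for 3 of the 13 genes (*SNAI2*, *HMGA2* and *PITX1*), beside 19.2% of all tested genes. The list median was above 0 in both (0.24 and 0.18 in centred log2 CPM). Other genes were highest in shScr replicate 4 and shEN1 #2 replicate 1. These were *TFAP2A* (48.2 and 44.9 CPM, 20.3 to 29.5 elsewhere), *TFAP2C* (32.5 and 33.3, 16.7 to 23.4 elsewhere) and *SOX2* (3.34 and 3.63, 0.324 to 1.58 elsewhere). *TWIST1*, *TWIST2*, *PRRX1* and *IRX4* were at 0 in every library.

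Subtype marker genes, the products of these programs rather than the factors, were present for both subtypes, with 9 of 24 classical and 16 of 25 basal-like markers at 1 CPM or more on average. Of 24 classical markers, 13 were tested, 3 were higher and 10 lower under the shEN1 label and 0 were called, with a median log2 fold change of -0.18. Of 25 basal-like markers, 16 were tested, 7 were higher and 9 lower and 0 were called, with a median of -0.021. Both medians moved with single libraries. The classical median was -0.54 without shScr replicate 4 and above 0 without shScr replicate 2 (0.050), without shScr replicate 3 (0.019) or without shEN1 #2 replicate 1 (0.12), and the basal-like median ran from -0.23 to 0.19 with 1 library left out. Among the classical markers *CEACAM6*, a surface adhesion protein, was at 857 ± 434 and 795 ± 388 CPM (shScr and shEN1; SD, n = 4 each), *TSPAN8* at 51.3 ± 31.6 and 42.0 ± 25.1, *AGR2* at 35.9 ± 23.6 and 27.6 ± 14.0 and *LGALS4* at 32.7 ± 15.8 and 27.7 ± 17.7 CPM, the 4 most abundant of the list. Other classical markers were barely detected, with the trefoil factor *TFF1* at 0.233, *CTSE* at 0.304 and *REG4* at 0.022 CPM on average, and *AGR3*, *TFF3*, *BTNL8* and *FAM3D* were at 0 in every library. Among the basal-like markers the keratin *KRT7*, which is also on the epithelial or ductal list, was at 659 ± 375 and 689 ± 394 CPM. *TNS4* was at 411 ± 196 and 450 ± 212, *SLC2A1* at 218 ± 23.8 and 222 ± 25.9 and the noncoding *UCA1* at 136 ± 35.8 and 130 ± 13.7 CPM. *KRT6A* and *KRT6C* were among 6 basal-like markers at 0 throughout.

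Both marker lists were low in the same pair of libraries as *HNF4A*. The median centred log2 CPM of the classical markers was -1.43 in shScr replicate 4 and -1.48 in shEN1 #2 replicate 1 against 0.24 to 0.87 in the other 6 libraries, and that of the basal-like markers was -0.84 and -0.97 against -0.024 to 0.46. The low pair was the lowest for 10 of the 13 classical and 13 of the 16 basal-like markers tested, beside the 19.2% of all tested genes. In the libraries where *HNF4A* and *GATA6* were lowest, the basal-like markers were thus low as well. The epithelial or ductal list, which shares *KRT7* with the basal-like list, moved the same way. Of its 8 genes, 5 were lowest in this pair, *KRT7* among them, with a list median of -0.59 and -0.77.

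**Figure D5:**
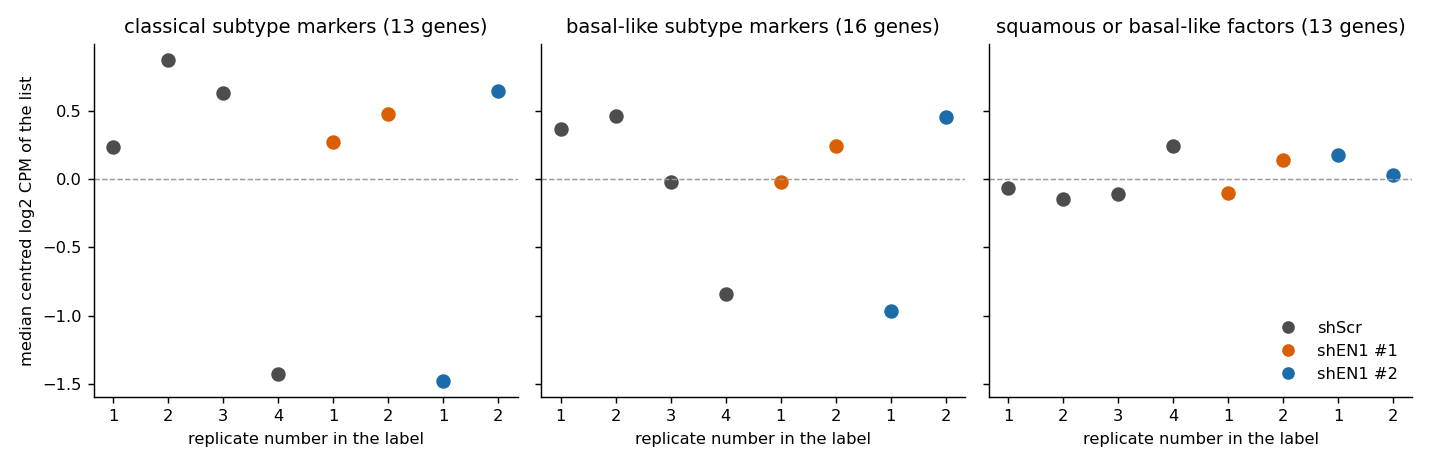
Median log2 CPM, centred per gene, of the tested classical markers (13 genes), basal-like markers (16) and squamous or basal-like factors (13) in each library, colored by label. Classical and basal-like markers are both lowest in shScr replicate 4 (-1.43 and -0.84) and shEN1 #2 replicate 1 (-1.48 and -0.97), where the squamous factors are at 0.24 and 0.18.

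Markers of other pancreatic and stromal cells were low or at 0, apart from *PAX6* and *CD68*. The summed level lay between 2.67 and 7.44 CPM for the 6 acinar markers (3 of them, *CPA1* and *AMY2A* among them, at 0 in every library, and *PRSS1* at 0.115 CPM on average), 0.316 to 0.676 CPM for the 3 endothelial markers (*CDH5* at 0) and 1.17 to 4.22 CPM for the 5 fibroblast markers (*COL1A2* and *DCN* at 0). The 6 endocrine markers summed to 15.6 to 22.1 CPM, nearly all from *PAX6* (15.5 to 22.03 CPM), with *INS* and *GCG* at 0. The 4 leukocyte markers summed to 8.15 to 35.3 CPM, nearly all from *CD68* (7.75 to 34.6 CPM), with *PTPRC* and *CD3E* at 0. *CD68* was lowest in the same pair of libraries as *HNF4A*, and its part in the pattern was not tested.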

How the data were processed

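Poly(A)-selected RNA from SUIT2 cells was sequenced in 8 libraries, 4 labelled shScr and 4 labelled shEN1. The authors aligned reads to hg19, by the study's methods, with HISAT2 and counted them with featureCounts (the build list in the labels names mm9), and deposited whole-number counts per gene with no normalization. The annotation and the strand setting are not given in the sources used here. Totals were 33423590 to 37810604 counts, and 2006 identifiers without a symbol held 0.214% to 0.257% of them.

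Members, gene lists and tests were chosen with earlier results of these data known. Low counts were removed with filterByExpr (minimum 10, leaving 14333 genes), and the rest scaled by TMM (factors 0.962 to 1.07) and tested with edgeR 4.0.16 (glmQLFit, glmQLFTest) in R 4.3.3, with Benjamini-Hochberg adjustment over all tested genes. DESeq2 1.42.0 and limma-voom (limma 3.58.1) were alternatives, with other normalizations, filters, blocks and left-out libraries. Each member's CPM was compared by exact two-sided permutation over 70 assignments, which cannot give a p below 0.0286. Intervals (95%) used the t quantile of the edgeR fit. Tests were tried on simulated counts first. Named genes were the members, *EN1*, the 2 nearest profiles per member (1 is not reported here) and the 4 most abundant genes of each list, with other genes named after their values were seen. Lengths and positions came from GENCODE 44 lifted to GRCh37, and promoters from RefSeq. A check on part of the libraries showed no pairing by replicate number but could not exclude it.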

Additional observations from a re-analysis of the deposited data

Results flagged for a closer look

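In 30 groups of 4 libraries, 1 library lay far from the other 3 in 2 cases. Chance alone gives about 1.5 if the groups are independent, but these groups share the same libraries. *TP63* had 0.230 CPM in the library labelled shScr replicate 3 and was at 0 in the other 3 libraries labelled shScr. Any gene with counts in 1 library of a group is flagged in this way. The TMM factor of the library labelled shEN1 #2 replicate 1 was 1.07, against 0.974 to 0.981 in the other 3 libraries labelled shEN1. The factor of shScr replicate 4 was 1.06, against 0.962 to 1.00 in the other libraries labelled shScr. These are the pair in which *HNF4A*, *GATA6*, *FOXA2*, *KLF5* and *ELF3* were lowest after scaling by these factors. Before scaling, *KLF5* had fewer counts in shEN1 #1 replicate 1 (8189) than in shScr replicate 4 (8397), whose total was smaller. The other genes had their fewest counts in the pair, for *HNF4A* 540 and 586 against 1267 to 1836 elsewhere. The part of the factors in these levels was not tested.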

How the results depend on the processing

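No member was called in any fit, and 4 libraries a label limit what could be seen. The count of genes called between the labels was 2 with DESeq2, 1 with the replicate block, 1 without the libraries apart on the first component, 44 at an unadjusted p below 0.05 and 0 to 1 with 1 library left out. For shEN1 #1 it was 1 with no filter, 3 with DESeq2, 1 with only the libraries compared and 0 to 1 with 1 library left out. With the replicate block (6 libraries) the log2 fold change reversed to 0.24 for *FOXA1* and -0.19 for *FOXA2*. The list medians moved to -0.42 (basal-like markers) and -0.62 (classical markers) with this block. Among replicates 1 and 2, deviations from the group mean gave correlations of -0.15 to 0.12 between groups, which show no pairing by replicate number. The values for replicate 2 repeat those for replicate 1, and the other shScr replicates were not in this check, so it cannot exclude pairing. Without the libraries apart on the first component *FOXA1* was at 0.072. That setting and those on header numbers were chosen after seeing the data. Within lower header numbers, *GATA6* (-0.11), *FOXA1* (0.20), *FOXA2* (-0.55) and *EN1* (-0.27) reversed, and within higher ones *HNF4A* (0.34), *PDX1* (0.031), *KLF5* (0.27) and *ELF3* (0.20). For shEN1 #1 limma-voom gave 0.14 for *HNF4A*, and *FOXA1*, near 0, turned to 0.0039 with DESeq2's size factors, 0.012 with no filter, 0.0038 with DESeq2, 0.024 with limma-voom and 0.0073 with only the libraries compared. Limma-voom gave -0.063 for *FOXA2* in shEN1 #2 and -0.067 for *ELF3* between the constructs, and library size only gave 0.027 for *KLF5* there. The causes were not tested.

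With 1 library left out, the log2 fold change kept its sign but moved from 0.028 to 0.51 for *FOXA2* and from -0.62 to -0.064 for *ELF3*, and those that reversed ranged from -0.10 to 0.22 for *GATA6*, -0.39 to 0.12 for *HNF4A*, -0.23 to 0.080 for *FOXA1* and -0.13 to 0.051 for *KLF5*, with permutation p (exact test) from 0.457 to 0.971, 0.314 to 0.857, 0.314 to 0.971 and 0.429 to 0.971. For shEN1 #1 they ranged from -0.28 to 0.21 for *HNF4A*, -0.25 to 0.23 for *FOXA1*, -0.47 to 0.054 for *PDX1* and -0.18 to 0.13 for *KLF5*. For shEN1 #2 they ranged from -0.53 to 0.26 for *GATA6*, -1.31 to 0.35 for *HNF4A*, -0.47 to 0.11 for *FOXA1*, -0.95 to 0.67 for *FOXA2*, -0.48 to 0.14 for *PDX1*, -0.37 to 0.19 for *KLF5* and -1.28 to 0.40 for *ELF3*. Between the constructs they ranged from -0.70 to 0.084 for *GATA6*, -1.30 to 0.36 for *HNF4A*, -0.47 to 0.11 for *FOXA1*, -1.36 to 0.26 for *FOXA2*, -0.29 to 0.33 for *PDX1*, -0.34 to 0.21 for *KLF5* and -0.91 to 0.77 for *ELF3*. A construct left with 1 library is assumed to vary like the other groups.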
